A study of Mus musculus with 2 samples.

Results

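The replication-dependent histone genes were taken as every gene whose GENCODE mouse M21 symbol begins with Hist1h, Hist2h, Hist3h or Hist4h, and 67 such genes have a row among the 43346 mouse genes of the deposited tables. Of them 64 are annotated as protein-coding and 3 as pseudogenes (Hist1h2aj, Hist1h2al and Hist3h2bb-ps). M21 holds 70 such symbols, and Hist1h2bh, Hist1h2bm and Hist2h2bb have no row under their own identifier. The set holds 6 genes for H1, 20 for H2A, 16 for H2B, 12 for H3 and 13 for H4. Thymus RNA of more than 200 nt from B6NCrl mice at postnatal day 0 was sequenced in 2 libraries, each from 13 pg of total RNA, the amount the labels equate with 1 cell. Replicate 1 is pup 6 and replicate 2 is pup 7 of a Charles River C57/Bl6 female, no treatment or genetic change is given, and the labels list a single donor for both. Both libraries form a single group, so the data give levels and the agreement of 2 libraries, and no test between groups.

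Nucleosomes are built from the core histones H2A, H2B, H3 and H4, and the linker histone H1 binds the DNA between them. Replication-dependent histone genes lie in clusters, have no introns as a rule, and are transcribed mostly in S phase, when new DNA has to be packaged. Their mRNA is unusual in ending in a conserved stem-loop in place of a poly(A) tail. The stem-loop is bound by SLBP, and the cut that forms the end is directed by the U7 snRNP. In the newborn thymus most cells are thymocytes, many of which divide.

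The tissue label was checked against marker genes. All 8 thymocyte markers were read in both libraries, with Trbc2, the T cell receptor beta constant region, at 6499.9 and 6037 TPM in replicates 1 and 2. TPM is a length-corrected level, here rescaled to 1000000 over mouse genes. All 6 markers of cycling cells were read in both libraries as well, among them the ribonucleotide reductase subunit Rrm2 at 357 and 101 TPM, Pcna at 381 and 318 TPM, and Top2a at 504 and 170 TPM. The epithelial regulator Foxn1 had 0 and 1129 expected counts, although the epithelial gene Krt8 had 772 and 846 TPM. The other epithelial markers, Ccl25 and Psmb11, were higher in replicate 1, at 857 and 657 TPM and at 87.8 and 16.3 TPM. The 3 mesenchyme markers summed to 289.6 and 440 TPM, with Pdgfra at 1 and 0 expected counts. The 3 erythroid markers summed to 1601 and 3837 TPM. Mouse genes held 25999043 and 31902773 expected counts in the 2 libraries.

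The stem-loop was searched in the M21 transcript of each gene as a stem of 6 paired bases around a loop of 4, and 42 of the 67 models held it. The stem had to open with GG and close with CC, with G-T pairs allowed, and the loop had to open with TT. These letters were thus set by the search. The most common form, in 24 members of H1, H2A, H2B and H3, was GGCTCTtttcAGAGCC, with the stem in capitals. All 11 stem-loops found in H4 models had another stem: 7 read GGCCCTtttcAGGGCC, 2 read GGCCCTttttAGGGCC and 2 read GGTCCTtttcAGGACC. A further 6 members of H1, H2B and H3 had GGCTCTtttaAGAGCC, and Hist2h2ac alone had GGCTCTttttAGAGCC. The next lines show the stem-loop (capitals) with the 12 bases before it, on the gene's strand from the M21 transcripts, for members that carried most of the signal and for Hist1h2ao, the near-copy of the highest one.
Hist1h2ap: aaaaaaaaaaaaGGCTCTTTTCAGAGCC
Hist1h2ao: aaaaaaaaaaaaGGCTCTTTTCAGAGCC
Hist1h2ae: aaaaaaaacaaaGGCTCTTTTCAGAGCC
Hist2h2aa2: agctcctaaaaaGGCTCTTTTCAGAGCC
Hist3h2a: acagacaccaaaGGCTCTTTTCAGAGCC
Hist1h1c: aacaatccaaaaGGCTCTTTTCAGAGCC
Hist1h4d: ccaaaaaccaaaGGCCCTTTTCAGGGCC
Hist1h4i: atgctacttaaaGGCCCTTTTTAGGGCC

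One H2A gene supplied most of the histone signal. The 67 members summed to 8751 TPM in replicate 1 and 5422 TPM in replicate 2 (mean 7087 ± 2353, SD, n = 2), and they held 0.274% and 0.157% of mouse expected counts. Hist1h2ap alone held 73.8% and 72.1% of the summed TPM. Without it the other 66 members summed to 2296 and 1513 TPM. The 10 highest members together held 93.4% and 91.3% of the summed level, and the remaining 57 shared 574 and 470.2 TPM.

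By type, H2A was highest with 6871 and 4259 TPM, which was 78.5% of the set in each library. H4 followed with 984 and 617 TPM, or 11.2% and 11.4% of the set. H3 had 608 and 237 TPM, H2B 169.8 and 233 TPM, and H1 119 and 77.2 TPM. H4 and H3 were each higher in replicate 1, whereas H2B was the single type whose sum was higher in replicate 2. With Hist1h2ap left out, the H2A sum was 416 and 349 TPM (383 ± 47.5), below H4 in both libraries. In replicate 1 the order below H4 was then H3, H2A, H2B and H1, and in replicate 2 it was H2A, H3, H2B and H1.

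**Figure D1:**
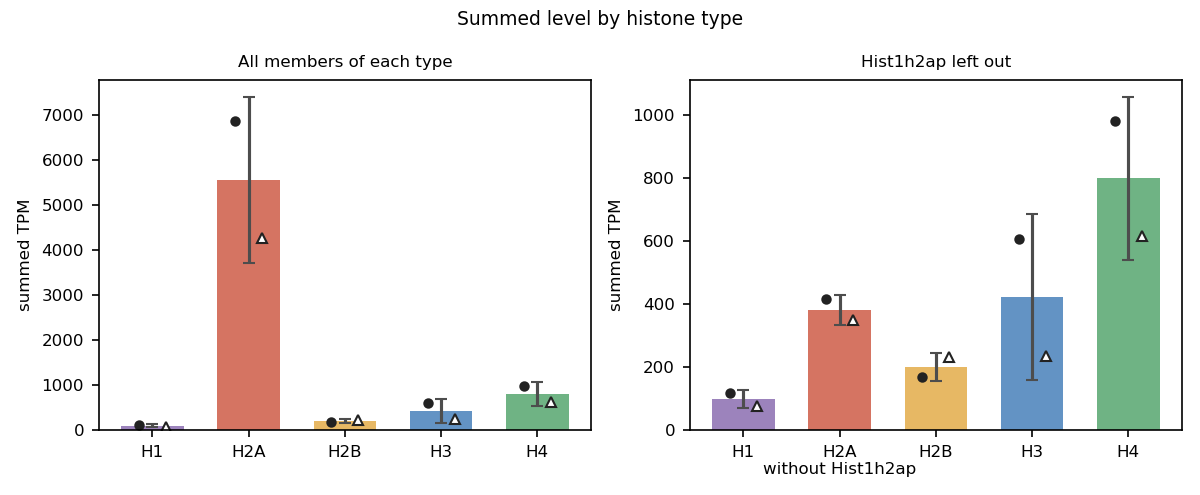
Summed TPM of the members of each histone type; bars are the mean of the 2 libraries, error bars 1 SD, circles replicate 1 and triangles replicate 2. The left panel holds all members, with H2A at 6871 and 4259 TPM; the right panel leaves out Hist1h2ap, where H4 at 984 and 617 TPM is the highest type.

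Among the H2A genes, which encode the histone that pairs with H2B in the nucleosome, Hist1h2ap (chr13:21833026-21833507, minus strand, mm10, a single-exon gene) had 6454 TPM in replicate 1 and 3909.9 TPM in replicate 2, from 50509 and 34580 expected counts. It ranked 6 and 18 of all mouse genes by TPM. Hist1h2ae (chr13:23570517-23571220) came next at 137 and 77.9 TPM. Hist2h2aa2, in the Hist2 cluster (chr3:96239749-96240276), had 52.9 and 95.2 TPM. Those 3 genes were read at a like order of size in both libraries. Hist1h2ak had 70.7 TPM in replicate 1 and 2.08 in replicate 2, and Hist1h2ai had 11.0 TPM in replicate 1 and 50.3 in replicate 2. Hist3h2a, the H2A gene of the Hist3 cluster (chr11:58954685-58956830), had 26.8 and 43.5 TPM.

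The proteins of 9 H2A members were identical when their M21 coding sequences were translated, and Hist1h2ap is among them. Summed, these 9 had 6630 and 4082 TPM. The coding sequence of Hist1h2ao is the same as that of Hist1h2ap at all 390 bases, and those of the other H2A members of that length differ from it at 3 to 65 bases. Hist1h2ao nevertheless had 17.6 and 0 expected counts. Reads that match more than one copy were divided by the authors' estimate, so a single copy's level is uncertain where copies share sequence. For Hist1h2ap the deposited posterior SD was 0.102% of its expected count in replicate 1 and 0.119% in replicate 2, against 140.0% for Hist1h2ao in replicate 1.

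All 13 H4 genes encode an identical protein in M21, and their sum is given as the H4 level. TPM is divided by the length of each model, so this sum still depends on the copy to which reads were assigned. Hist1h4d (chr13:23581598-23582735) led with 542 TPM in replicate 1 and 390.5 TPM in replicate 2. Hist1h4i (chr13:22040636-22041362) had 297 TPM in replicate 1 and 12.1 TPM in replicate 2, a log2 ratio (replicate 2 over 1) of -4.51. The 2 leading H4 genes thus differed in how far the libraries agreed. Hist1h4n, which lies next to Hist1h2ap, had 73.7 and 71.9 TPM. Hist1h4c had 53.6 and 90.4 TPM, and Hist1h4h had 5.92 and 50.2 TPM. Hist4h4, the single member of the Hist4 cluster on chromosome 6, had 0 counts in both libraries.

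The H3 genes fall into 2 groups of identical protein, known as H3.1 and H3.2, which differ by a single residue. The 4 H3.1 genes summed to 495 and 200.1 TPM. Hist1h3i (chr13:21782960-21783370) gave most of it, with 358 and 199.7 TPM. Hist1h3a was the other H3.1 gene of note, with 137 TPM in replicate 1 and 0.182 TPM in replicate 2, from 1216 and 1.81 expected counts. The 8 H3.2 genes summed to 113 and 36.5 TPM. Their highest member was Hist2h3b with 47.7 and 1.23 TPM, followed by Hist1h3c with 6.26 and 34.7 TPM. The antisense gene Gm20628, whose transcript covers Hist2h3b, had 1449.6 and 1.32 expected counts beside 379 and 11.0 for Hist2h3b. Whether the libraries keep strand is not given in the sources used here, and without strand the reads of these overlapping genes cannot be told apart.

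H2B, the partner of H2A, was read in both libraries from 3 of its 16 genes and in 1 library from 5. These were 18.75% and 31.25% of its genes, beside 19.0% and 12.8% of all mouse genes. Among protein-coding genes the shares were 32.1% and 19.3%. Hist1h2bc (chr13:23684199-23692908) was the highest with 72.0 and 104 TPM. Hist1h2bg had 0 counts in replicate 1 and 709 in replicate 2 (81.2 TPM), which was 192-fold higher there when the 0 is set at a floor of 3 counts. Hist3h2ba went the other way, with 835 counts (79.4 TPM) in replicate 1 and 0 in replicate 2, 342-fold lower by the same floor. These folds leave out the uncertainty of dividing reads among copies. The deposited interval of Hist1h2bg reached up to 0.781 TPM in replicate 1 and down to 72.2 TPM in replicate 2. That of Hist3h2ba reached down to 72.2 TPM in replicate 1 and up to 0.245 TPM in replicate 2. Hist1h2bb had 18.1 and 19.2 TPM in replicates 1 and 2. The 3 genes Hist1h2bc, Hist1h2be and Hist1h2bg encode an identical protein, and their sum was 72.0 and 186 TPM. A second group of 6 identical H2B proteins had 0.0535 and 0.171 TPM in all.

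Of the 6 linker histone genes, Hist1h1c (chr13:23738808-23740367) was read most evenly, at 40.0 and 46.6 TPM (43.3 ± 4.64). Hist1h1d had 747 counts (56.7 TPM) in replicate 1 and 0 in replicate 2. Hist1h1e likewise had 279.6 counts in replicate 1 and 0 in replicate 2, whereas Hist1h1b had 10.0 counts in replicate 1 and 455 in replicate 2. No pair of H1 members encodes an identical protein. Hist1h1a and Hist1h1t had 0 counts in both libraries. Hist1h1t is the linker histone of the testis, and the testis H2A and H2B genes Hist1h2aa and Hist1h2ba were also at 0 in both.

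**Figure D2:**
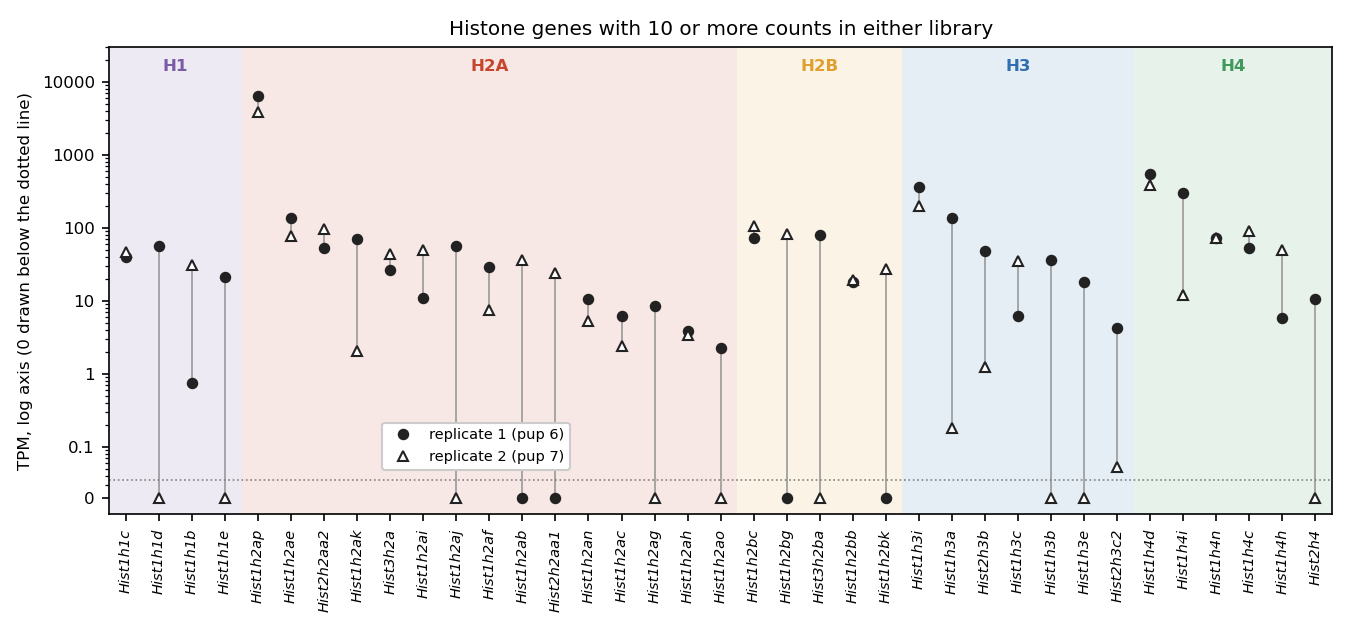
TPM (log axis) of the 37 members with 10 or more expected counts in either library, ordered by mean within each type; circles are replicate 1, triangles replicate 2, joined by a line, and a value of 0 is drawn below the dotted line. Hist1h2ap lies at 6454 and 3909.9 TPM, above all others, and 13 members have one symbol at 0.

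By cluster, the 54 Hist1 members on chromosome 13 carried 8528 and 5258 TPM, which was 97.5% and 97.0% of the set. The 9 Hist2 members on chromosome 3 had 116 and 121 TPM, and the 3 Hist3 members on chromosome 11 had 106 and 43.5 TPM. Hist1 is not continuous: gaps of more than 100 kb split it into blocks. The block at chr13:21715763-21837530 holds 18 members with 7039 and 4272 TPM, of which all but 585 and 362 TPM was Hist1h2ap. The largest block, at chr13:23531050-23764406, holds 28 members with 1179.5 and 943 TPM, and 21 of them were read in at least 1 library. Of all mouse genes 68.2% were read in neither library, and of protein-coding genes 48.6%. A block of 5 members at chr13:22035164-22043676 had 309 and 43.0 TPM, nearly all of it Hist1h4i in replicate 1. A block with the testis genes Hist1h2aa and Hist1h2ba was at 0 in both libraries, and the pseudogene Hist1h2al, far away at chr13:51202727-51203065, had 0.588 and 0.865 TPM.

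**Figure D3:**
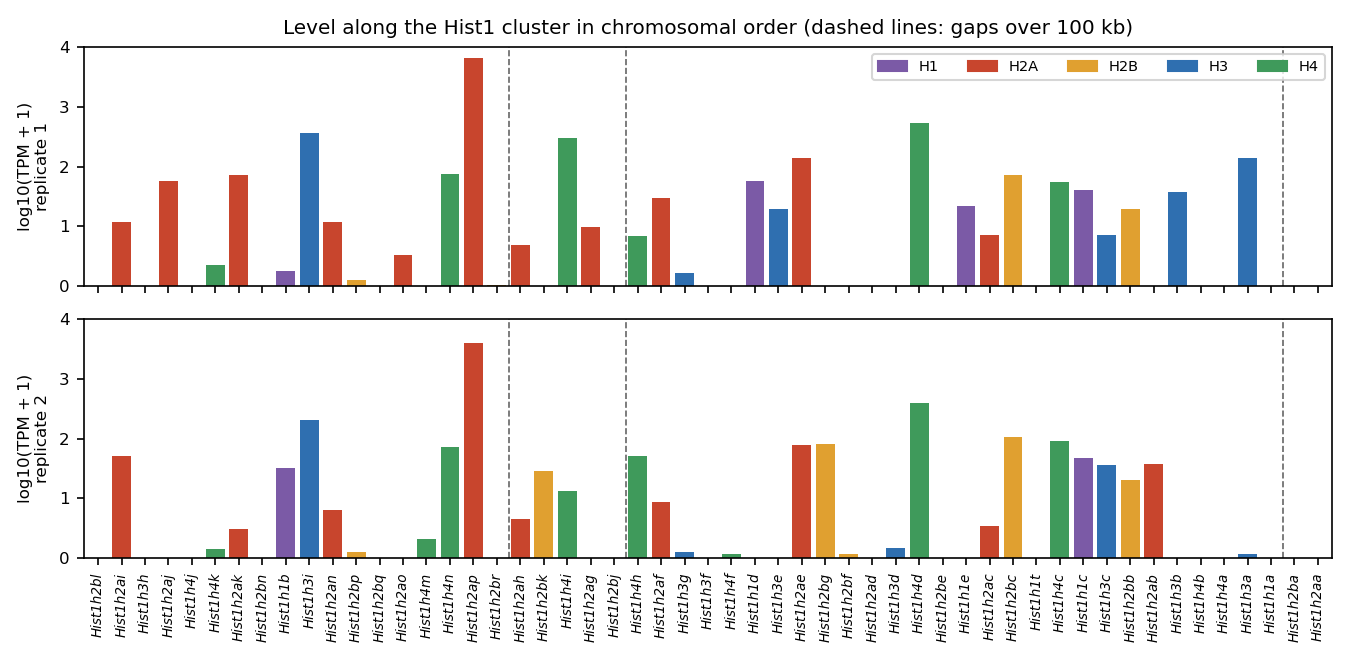
Level of each Hist1 member, as log10(TPM + 1), in chromosomal order; the upper panel is replicate 1 and the lower panel replicate 2, colours give the histone type, and dashed lines mark gaps over 100 kb. The pseudogene Hist1h2al lies far from the rest and is left out, and several bars, such as that of Hist1h1d, stand in a single panel.

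Many H2A and H2B genes sit head to head and share the DNA between their start sites. Among the members 13 such pairs have M21 start sites 173 to 306 bases apart. The H2A gene had the higher TPM in both libraries in 6 pairs, and the H2B gene did so in 1, Hist1h2bc beside Hist1h2ac. Of those 6, Hist3h2a has the pseudogene Hist3h2bb-ps as its partner, and Hist2h2ac had just 4.27 and 4.33 expected counts. Hist1h2ap and its partner Hist1h2br start 236 bases apart, and had 50509 and 34580 expected counts for the H2A gene against 1.24 and 0 for the H2B gene. Both partners of a pair were read in 3 pairs in replicate 1 and in 4 pairs in replicate 2.

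Promoter sequence was available from RefSeq (GRCm38.p6) for 59 members, as 60 windows of 250 bases before the RefSeq start and 50 after it. The motifs were searched only in the 250 bases before that start, and each share of windows below refers to this part. The CCAAT box, a common promoter element searched on both strands, was in 81.7% of these windows and in 33.9% of all 32851 promoter windows. All H1, H2A and H2B windows held it, against 3 of the 12 H4 windows. TATAAA, the core of the TATA box on the gene's strand, was in 40.0% of member windows and 7.59% of all. TTTGCAT, part of the octamer element of H2B promoters, was searched on both strands and lay in 21.7% of member windows and 4.12% of all windows. By type it lay in 5 of 14 H2B windows, 7 of 18 H2A windows and 1 of 12 H4 windows, and in no H1 or H3 window. Head-to-head H2A and H2B genes share DNA in their windows, as do Hist1h2ae and Hist1h2bg. A single match found on both strands, of TTTGCAT or of CCAAT, can thus count for both types. RefSeq models without leader sequence begin at the start codon, which shifts their windows. Most of the stretch between Hist1h2ap and Hist1h2br is shown because nearly all counts of this pair fell on Hist1h2ap. The bases next to Hist1h2br lie outside the RefSeq window and are left out. The part shown lies at chr13:21833508-21833725, is given on the minus strand and ends at the Hist1h2ap start, with CCAAT on either strand in capitals.
Hist1h2ap upstream: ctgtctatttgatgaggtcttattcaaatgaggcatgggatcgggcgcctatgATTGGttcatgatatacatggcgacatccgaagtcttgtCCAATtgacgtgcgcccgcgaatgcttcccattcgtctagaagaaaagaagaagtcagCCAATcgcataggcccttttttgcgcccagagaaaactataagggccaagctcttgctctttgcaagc
It holds 3 CCAAT matches, and neither TATAAA nor TTTGCAT occurs in it. A match describes letters in the window, and no binding was measured.

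The agreement of the libraries was low for single genes and, by the median size of the ratio, higher for sums of copies. A member counted as read at 1 or more expected counts: 29 of the 67 were read in each library, a further 18 in just 1 of them, and 20 not at all. The shares read in both were 43.3% of members, 19.0% of all mouse genes and 32.1% of protein-coding genes, and the shares read in 1 library only were 26.9%, 12.8% and 19.3%. Of 31 members whose counts averaged 100 or more, 19 differed by 4-fold or more on the log2(TPM + 1) scale, 11 of them higher in replicate 1 (21.5% of all 9341 genes tested were) and 8 higher in replicate 2 (29.4% of all genes). In either direction that was 61.3% of members against 50.9% of all genes. The median of these log2 ratios (replicate 2 over 1) was -0.47 for the members and 0.17 for all genes. The quartiles overlapped widely, at -4.46 and 1.47 for the members and -1.47 and 2.84 for all genes.

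The share past 4-fold varied with level, in the members and in all genes. Of the 5 members with a mean TPM of 100 or more, 1 differed by 4-fold or more (Hist1h4i), and 10.4% of the 1949 genes at that level did. At 5 to 25 TPM the count was 10 of 13 members, or 76.9%, against 76.2% of 3211 genes, and at 25 to 100 TPM it was 57.1% of 14 members against 47.0% of 3728 genes. At 0.5 to 5 TPM, where 1 TPM added to each value shrinks a ratio, 2 of 8 members and 41.9% of 1848 genes passed 4-fold. Of the 31 members, 12 had 3 or fewer counts in 1 library, or 38.7%, against 35.1% of all genes. These shares of members were near those of all genes. The 13 members that had 10 counts or more in a library and none in its counterpart comprised 9 that were read in replicate 1 (Hist1h1d, Hist1h1e, Hist1h2ag, Hist1h2aj, Hist1h2ao, Hist3h2ba, Hist1h3b, Hist1h3e and Hist2h4) and 4 that were read in replicate 2 (Hist1h2ab, Hist2h2aa1, Hist1h2bg and Hist1h2bk). The share of all genes under this last rule was not counted, so these 13 are a list and set the members apart from no other genes.

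Summing copies lowered the median size of the ratio, but not the ratio of every group. With genes of identical protein added together, 6 of 16 units differed by 4-fold or more, and with copies of 95% or more sequence identity added together 7 of 17 did. The median size of the log2 ratio was 3.53 for single members, 1.48 for identical proteins and 1.24 for the 95% groups. The log2 ratio was -0.67 for the H4 sum and -0.70 for the sum of the 9 identical H2A genes (-0.72 for Hist1h2ap alone), so each was higher in replicate 1. Elsewhere a sum differed more than its highest member. The ratio was 0.53 for Hist1h2bc and 1.35 for its group of 3, and 0.83 for Hist2h2aa2 and 1.15 with Hist2h2aa1 added. Sums also have higher levels than their members, and the part of level in these shares was not tested. Over the whole set the level was 1.61-fold higher in replicate 1. The 6 markers of cycling cells went both ways: Rrm2, Top2a, Mcm5 (101 and 71.5 TPM) and Pcna had the higher level in replicate 1, and Ccnb1 (327 and 545 TPM) and Mki67 (9.86 and 22.0 TPM) in replicate 2. Their summed level was 1678 TPM in replicate 1 and 1228 TPM in replicate 2. In tissue RNA, fewer cells of a type and less RNA per cell cannot be told apart, and the part of cell cycle stage in the histone sums was not tested.

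**Figure D4:**
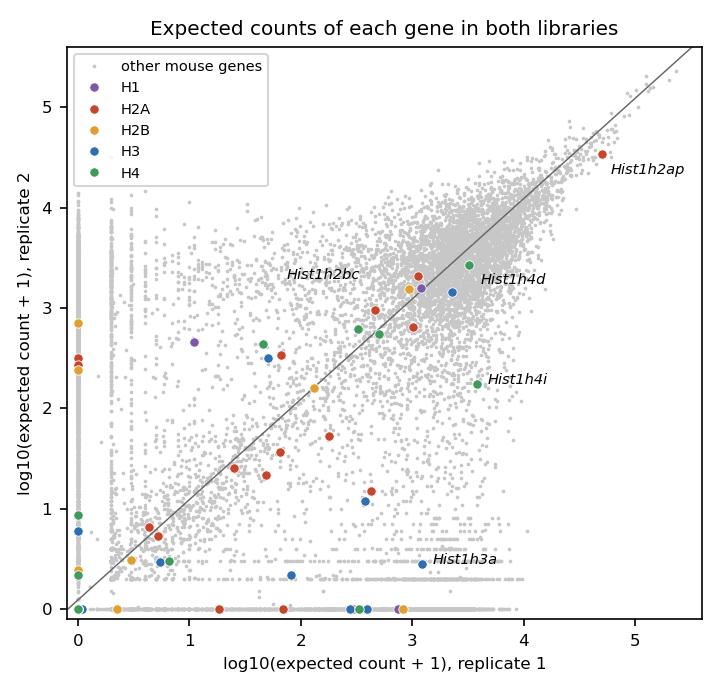
Expected counts of each gene in both libraries, as log10(count + 1); grey points are other mouse genes, coloured points are histone members by type, and the line is the ratio of the library totals. Hist1h2ap and Hist1h4d lie near the line, whereas Hist1h4i and Hist1h3a lie far below it and 13 members lie on an axis, at 0 in a library and at least 10 counts in the remaining one.

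How each transcript model ends was set beside its level, for the 47 members whose model in the tables is the M21 transcript. The 17 models that end within 60 bases after the stem-loop held 6766 and 4167 TPM, or 312 and 257 TPM without Hist1h2ap, and 6 of them were read in both libraries. The 14 models without a stem-loop that stop at most 3 bases after the coding sequence had 485 and 299 TPM, with 8 read in both. The 9 models that run more than 60 bases past the stem-loop had 476 and 102 TPM, and 7 of these hold the polyadenylation signal AATAAA or ATTAAA after it. Hist1h1c, Hist1h4i and Hist3h2a are among these 9, and their models run on for 840, 330 and 1643 bases. The other 7 models have no stem-loop, and had 104 and 1.23 TPM, with 1 read in both. They have a longer end or, as pseudogenes, no coding sequence from which an end could be measured. The pseudogene Hist1h2aj gave 56.5 and 0 TPM of their sum. Members of each of the 4 classes were thus read, where 19.0% of all genes and 32.1% of protein-coding genes were read in both libraries. A model's length bears on its TPM: the effective length is the length less 99 bases, a large part of a transcript this short.

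Hist1h2ap and Hist1h2ao are the 2 of these 47 models with a run of 12 A, the one directly before the stem-loop in the sequences above. No other of the 47 exceeded 6. Their mean TPM was 5182 and 1.13, with the level of Hist1h2ao uncertain because of its shared coding sequence. Hist1h2ae, whose M21 model is longer than the one in the tables, has a run of 8 A there, as have Hist1h1d and Hist1h2bc. The longer M21 models of Hist1h2ac and Hist1h2be hold runs of 15 and 11 A, which lie past the stem-loop. Hist1h2ac had 6.25 and 2.40 TPM in replicates 1 and 2, and Hist1h2be had 0 counts in both. The part of such runs in the measured levels was not tested.

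**Figure D5:**
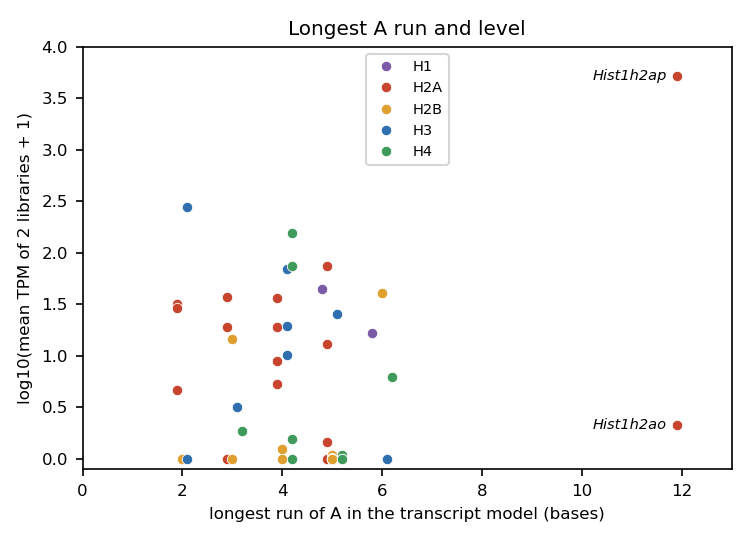
Longest run of A in the transcript model (bases) against the level, log10(mean TPM of both libraries + 1), for the 47 members with the same model in M21 and the tables, coloured by type and shifted sideways by up to 0.2 to show overlaps. Hist1h2ap and Hist1h2ao both have a run of 12, at mean levels of 5182 and 1.13 TPM; the other members lie at 6 or fewer.

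The same counts were made for genes that make, process and store histone products, where 19.0% of all genes and 32.1% of protein-coding genes were read in both libraries. The share of all genes at least 4-fold higher was 29.4% in replicate 2 and 21.5% in replicate 1, and with lists this short no share is set apart from these. Of 9 genes for histone gene transcription, 4 were read in both libraries and E2f1 in neither; of 8 whose counts averaged 100 or more, 2 were at least 4-fold higher in replicate 2 and 5 in replicate 1. Npat, the coactivator of histone clusters, had 6.67 and 43.7 TPM, and Casp8ap2, its partner at histone locus bodies, had 89.5 and 5.32 TPM. Of 12 genes for the processing of histone mRNA ends, 9 were read in both libraries, with 3 at least 4-fold higher in replicate 2 and 2 in replicate 1 of 10 at that count. Slbp, the stem-loop binding protein, was the highest at 367 and 159 TPM. The U7 RNA gene Rnu7, whose product is a short RNA, and Zfp473 had 0 counts in both.

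All 6 histone mRNA turnover genes that could be matched were read in both libraries, beside 19.0% of all genes and 32.1% of protein-coding genes. Of 5 at that count, 3 were at least 4-fold higher in replicate 2, where 29.4% of all genes were. Eri1, the exonuclease that trims histone mRNA ends, had 5.91 and 67.5 TPM. Of 17 histone chaperone genes 15 were read in both libraries. Of 14 at that count, 2 were at least 4-fold higher in replicate 2 and 3 in replicate 1, where 21.5% of all genes were. Rbbp4, a subunit of the CAF-1 assembly complex, had 271 and 269 TPM, and Nasp, the H3 and H4 chaperone, had 98.8 and 43.3 TPM. Of the CAF-1 subunits proper, Chaf1b had 11.0 and 6473 expected counts and Chaf1a had 1.00 and 0.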

How the data were processed

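Total RNA-seq of 2 P0 thymus libraries was used; groups and replicate numbers come from the labels, and the labels give a pup for each and a single donor for both. Per the file headers, the authors deposited for each gene an expected count (reads estimated per gene, those shared by copies being divided by the estimate), TPM, posterior means of both and the length and effective length, with no replicates pooled. The percent of each gene assigned to a transcript, also deposited, entered no result. Per the labels the assembly is mm10, the deposited notes name annotation M4, and the aligner and counter were not given in the sources used here.

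Genes were matched by ID to GENCODE M21 (42462 of 43346 rows). TPM was rescaled to 1000000 over mouse genes. Ratios divide replicate 2 by replicate 1 after adding 1 TPM to each, on a log2 scale. Calls used a 4-fold limit and a mean of 100 or more expected counts. Floors of 3 counts, and the 95% level behind them, cover counting error only, since reads carry no molecular identifiers. Sequences were compared with blastn and Biopython 1.88; edgeR 4.0.16 and DESeq2 1.42.0 gave scaling factors on rounded counts and no test. Alternatives were posterior means, other scalings, pseudocounts, count and detection limits, and each library alone. Members and gene lists were chosen with earlier results of these data known. Named genes are the highest members overall and per type, the read members of Hist2 to Hist4, members at 0 in 1 library, and genes of the lists; other members are given where a group is described.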

Additional observations from a re-analysis of the deposited data

How the results depend on the processing

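With 2 libraries of 1 group, no test, and so no p-value, was possible, and a value's SD rests on 2 pups. No paired analysis was possible because there is a single group. The summed level was 5422 to 8751 TPM with either library left out, and without Hist1h2ap, an alternative chosen after seeing the data, it was 1904 TPM. The number read was 37 to 39 when a single library was asked for. Members past 4-fold fell from 19 of 31 to 10 of 31 with 10 TPM added. With a mean of 1000 or more counts required 1 was past it, out of the fewer members that reached this mean. The share of all genes was not counted at these 2 settings. Copies past 4-fold numbered 19 of 31 unsummed against 6 of 16 summed. Leaving out libraries aside, the other 34 of 38 values that answer a comparison stayed within 1.5 times (counts), 1 SD of the libraries (levels) or the order-statistic interval of the median, and 110 of 115 levels of single types, clusters and members moved by less than 1 SD. The interval of the median ran from -4.26, the ratio of Hist1h3e, to 0.74, that of Hist1h4c. It held 0 and the 0.17 of all genes, so few settings could move the median out of it. With either library left out a level becomes that of the one kept, as given throughout the report. Scaling moved the median log2 ratio of all genes to 0.25 (edgeR TMM) and 0.29 (DESeq2), against 0.17, and that of the members to -0.39 and -0.34. With no count filter it was 0. A search of the genome beyond the transcript ends was not run. The authors' estimate itself was wide for some members: a posterior SD over 25% of the count was found in 5 of 33 and 3 of 26 members with 10 or more counts. A count of 0 allows up to 3 counts, or 0.115 and 0.0940 in each 1000000 mouse counts.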

Other observations

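Replacement histone genes, whose mRNA is mostly polyadenylated and made outside S phase too, were added after the data were seen. The H3.3 genes H3f3b and H3f3a had 3118 ± 611 and 2325 ± 186 TPM (SD, n = 2), so that replacement H3 summed to 6007 and 4879.8 TPM, against 608 and 237 TPM for the 12 replication-dependent H3 genes. For H2A, 6 replacement genes summed to 4161 and 2502 TPM, against 416 and 349 TPM for the replication-dependent H2A genes without Hist1h2ap and 6871 and 4259 TPM with it. H2afz, which encodes H2A.Z, led with 2352 ± 1054 TPM. H2afx, which encodes H2A.X, had 219.7 and 44.4 TPM. Replacement H1 had 155 and 93.0 TPM, all from H1f0, against 119 and 77.2 TPM for the replication-dependent H1 genes. The share of each type that its replacement genes held thus differed between types, and its cause was not tested.

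The transcript that M21 names Hist2h2bb is listed in the tables under another gene identifier, which M21 names Gm42743, with 43.0 and 5.86 expected counts. It lies outside the rule for members.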
